A study of Mus musculus with 7 samples.

Results

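Lymphatic endothelial cells (LEC) line the lymph-filled sinuses of the lymph node. They were examined in mesenteric lymph nodes (mLN), which receive lymph from the intestine, of mice at 5 ages. A cell was counted as a LEC when it had 1000 to 4600 detected genes, at most 4.5% of its UMIs from mitochondrial genes, at least 1 UMI of Pecam1, which encodes the endothelial surface protein CD31, and at least 2 UMIs of Prox1, Mmrn1 and Lyve1 together. A UMI (unique molecular identifier) marks 1 captured RNA molecule. This gave 791 LEC among 13197 kept cells of 17692 deposited cells. As the reference, 1869 blood endothelial cells (BEC) were taken as kept cells with at least 2 Pecam1 UMIs and none of the 3 lymphatic genes.

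The labels give the strain as BALB/c, and the BALB/c line that the study's methods list under specific pathogen free housing is CD90.1 (BALB/c). No treatment is named, and the mLN were taken at birth or 1 day later (D0) or at 10, 24, 56 or 300 days of age (D10 to D300). After enzymatic digestion of the tissue, CD45-CD24- cells, which lack the pan-leukocyte marker CD45, were sorted into droplets for 3' single-cell RNA sequencing. By the labels, each of the 3 younger ages has 1 library, whereas D56 has 2 and so has D300, although the study's legends give a single replicate at D300. The deposited cell names carry the age and a running number only, so the paired libraries could not be told apart, cell barcodes could not be compared between libraries, and each age was 1 sample. How many mice were pooled per sample is not given in the sources used here.

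Prox1 is the transcription factor that sets and keeps lymphatic identity. Growth of lymphatic vessels is driven by VEGF-C through its receptor VEGFR3, encoded by Flt4. In a node, lymph enters under the capsule, where LEC form a ceiling and a floor to the subcapsular sinus, and leaves through medullary sinuses, where LEC carry scavenger receptors such as MARCO. Ackr4, on the ceiling cells, removes the chemokines CCL19 and CCL21 and so shapes the gradient that dendritic cells follow into the node.

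The LEC sums held 1314301, 964788, 1458829, 1476605 and 434818 UMIs from D0 to D300, with medians of 8323, 7976, 6751, 5583.5 and 3989.5 UMIs per cell. The BEC medians were 6682, 6869.5, 5657, 4144 and 3890.5, so depth per cell was lower at the later ages in both classes and the D300 LEC sum was the smallest. The D10 sample stood apart by sex. Y-linked genes were detected in 54.3% of its LEC and Xist in 13.8%, while Xist was detected in 88.3% to 98.8% of LEC at the other ages, although the study's methods give female mice unless stated otherwise. Genes known from other cell types were also detected. Col1a2, a collagen gene of fibroblasts, was detected in 87.5%, 48.3%, 40.5%, 26.0% and 8.51% of LEC in age order and in 82.5%, 49.3%, 32.8%, 30.0% and 11.7% of BEC. The 8 fibroblast markers together had no such order in LEC, at 2707, 1383, 2358, 1755 and 2629 CPM (UMI counts per 1000000 UMIs of the summed cells). Digestive enzyme genes of the pancreas together reached 676 CPM in LEC at D0 and 639.6 CPM at D24, 12.4 CPM at D10 and 0 at D56 and D300, and BEC had 761 and 728 CPM at D0 and D24. Whether these UMIs came from free RNA, from doublets, which were not removed, or from the LEC themselves was not tested. The part of them, of sex or of depth in the differences between ages below was not tested.

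The gate genes themselves describe the members and are no finding. Prox1 was detected in 597 of the 791 cells (75.5%), Mmrn1 in 593 (75.0%) and Lyve1 in 415 (52.5%), and 201 cells (25.4%) had all 3. Prox1 stood at 299, 304, 261, 257 and 269 CPM in the LEC sums of the 5 ages, Mmrn1 at 552, 309, 483, 742 and 708 CPM, and Lyve1 at 436, 350.3, 606, 299 and 205 CPM. The share of LEC with a Lyve1 UMI was 66.0, 59.5, 65.6, 40.5 and 26.6%, and with every cell thinned to 2000 UMIs it was 43.8, 39.7, 49.2, 27.8 and 20.4%. Nts, given as a LEC marker but not used in the gate, was detected in 210 LEC. Of 8 macrophage markers, which matter because macrophages can carry Lyve1, the summed level was 3.43 to 10.2 CPM in LEC, with 4 to 7 of the 8 genes at 0 in each sum, and Adgre1 (F4/80) was at 0 at all ages. The 7 leukocyte markers summed to 0 to 6.10 CPM from D0 to D56 and to 46.0 CPM (20 UMIs) at D300, where 1 LEC held a Ptprc UMI. Macrophage and leukocyte markers were thus near 0 in the LEC sums of D0 to D56.

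Cells at the edge of the gate graded into the neighbouring cells. The 88 members with exactly 2 lymphatic UMIs had 311 CPM of the lymphatic gene Fxyd6 and 103 CPM of the blood endothelial receptor Flt1, against 599 and 24.5 CPM in the 703 members with 3 or more. Just outside, 198 cells with Pecam1 and 1 lymphatic UMI had 177 CPM of Fxyd6 and 244 CPM of Flt1, and 140 cells with at least 2 lymphatic UMIs but no Pecam1 UMI had 485 and 20.1 CPM. In Fxyd6 and Flt1, cells without a Pecam1 UMI were thus closer to the members than cells with 1 lymphatic UMI were. Col1a2 did not go this way, at 861 CPM without Pecam1 and 825 CPM with 1 lymphatic UMI. Members with 2 and with 3 or more lymphatic UMIs had 370 and 157 CPM of it. Nts was alike in both outside sets, at 258 and 259 CPM.

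LEC made up 144 of 3713 kept cells at D0, which is 3.88% with an exact binomial 95% interval of 3.28% to 4.55%. The share was 5.90% at D10 (116 of 1967 cells, interval 4.90% to 7.03%) and 11.3% at D24 (195 of 1719 cells, interval 9.88% to 12.9%). It was 6.57% at D56 (242 of 3682 cells, interval 5.79% to 7.42%) and 4.44% at D300 (94 of 2116 cells, interval 3.60% to 5.41%). The share of all kept cells was highest at D24, and its interval did not meet that of any other age. These intervals, like all of those below, cover counting error only, and with 1 sample per age no age could be tested against another single age. Among gated endothelial cells (LEC plus BEC), LEC were 38.6%, 29.6%, 35.7%, 31.2% and 16.4% in age order, so the share of the endothelium was not highest at D24 and was lowest at D300. The deeper cells of the early samples pass a gate of counted UMIs more easily. After thinning all cells to 2000 UMIs before the gate, LEC were 1.64%, 2.29%, 4.63%, 3.18% and 2.20% of cells, and D24 stayed the highest. Its interval then met that of D56, but not those of D0, D10 and D300. The study describes cells over-represented at the youngest age as likely fibroblasts of adjacent tissue and excludes them. Such cells were not removed here, and their part in the share was not tested. Without cells holding Ptprc or Col1a2, LEC were 26.5%, 26.0%, 27.6%, 23.6% and 8.41% of cells in age order. The intervals of D0 to D56 then met each other. That setting also drops LEC with a Col1a2 UMI and left 18 LEC among 68 cells at D0. How well each kind of cell survives digestion and sorting cannot be told apart from its number in the node.

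To describe what set LEC apart from BEC, counts were summed per age and class, and the 10 sums were compared in edgeR's quasi-likelihood test with age as a block. The 5 ages served as replicates, and a positive log2 fold change means a higher level in LEC. Of 9560 genes tested, 2628 (27.5%) passed an adjusted p of 0.05. They comprised 1195 genes higher in LEC (12.5%) and 1433 lower (15.0%), and the median log2 fold change over all tested genes was -0.02. Without the age block 1593 genes passed. The 4 gate genes were not tested.

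Of 18 lymphatic identity genes, 17 were higher in LEC and none lower (median log2 fold change 4.19), against 12.5% of all tested genes. The list was put together with earlier results of these data known, so its count is no independent evidence. Flt4, the VEGF-C receptor, stood at 94.3, 87.1, 94.6, 124 and 106 CPM in LEC and 20.9, 12.5, 16.2, 19.3 and 26.4 CPM in BEC (log2 fold change 2.37 ± 0.14 SE, adjusted p = 1.02e-06). Pdpn, the mucin podoplanin, stood at 147, 189, 152, 137 and 36.8 CPM in LEC and 19.2, 8.82, 16.7, 32.3 and 16.4 CPM in BEC (log2 fold change 2.72 ± 0.32 SE, adjusted p = 0.000105). Pdpn was lowest at D300 yet every LEC value lay above every BEC value. The transcription factors of the list had all higher levels in LEC. Foxc2, needed for lymphatic valves, stood at 76.8, 82.9, 87.7, 116 and 78.2 CPM in LEC and 2.14 to 14.7 CPM in BEC. Tbx1, a T-box factor, stood at 98.2, 138, 150.1, 158 and 156 CPM in LEC and 1.71 to 7.79 CPM in BEC (log2 fold change 5.15 ± 0.25 SE, adjusted p = 3.88e-07). Maf, a leucine zipper factor, stood at 103, 200.04, 197, 355 and 241 CPM in LEC and 12.998, 6.97, 12.4, 51.6 and 16.9 CPM in BEC (log2 fold change 3.50 ± 0.25 SE, adjusted p = 3.44e-06). Nr2f2, the partner of Prox1 that venous cells share, differed least among them, with 173, 278, 239, 235 and 168 CPM in LEC and 95.5, 79.4, 44.9, 49.7 and 53.2 CPM in BEC (log2 fold change 1.73 ± 0.19 SE, adjusted p = 8.36e-05). For these 4 factors the lowest LEC value lay above the highest BEC value.

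The exception in the list was Ccl21a, the chemokine that draws CCR7-bearing cells into the node. It stood at 5462, 3193, 1882, 3499 and 2989.8 CPM in LEC and 938, 2073, 3127, 9563 and 4810.2 CPM in BEC (log2 fold change -0.09 ± 0.48 SE, adjusted p = 0.926), so LEC had the higher level at D0 and D10 and BEC at D24, D56 and D300. Its near-identical gene copies share reads, and fibroblast reference cells (no Pecam1 and no lymphatic UMI, at least 2 UMIs of Col1a2) held a Ccl21a UMI in 55.7, 97.2, 97.1, 100.0 and 99.8% of cells. How much of its level in either endothelial class came from other cells was not tested.

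**Figure D1:**
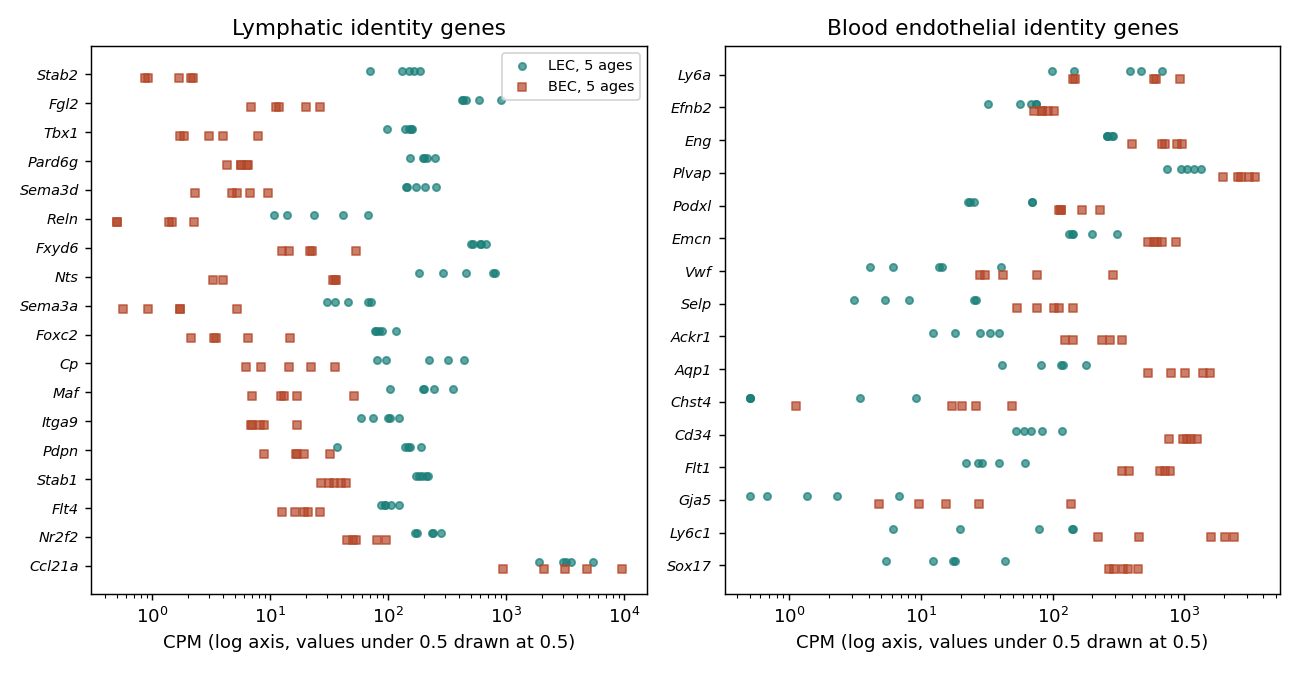
CPM (log axis) of 18 lymphatic identity genes (left) and 16 blood endothelial identity genes (right), with 1 circle per age for LEC and 1 square per age for BEC and genes ordered by the fitted log2 fold change. LEC and BEC symbols lie apart for most genes, while those of Ccl21a, Ly6a, Vwf, Efnb2, Gja5 and Chst4 overlap.

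All 16 blood endothelial identity genes were lower in LEC (median log2 fold change -3.13), against 15.0% of all tested genes. This list too was put together with earlier results of these data known, so its count is no independent evidence. Flt1, the VEGF decoy receptor, stood at 22.1, 29.0, 39.1, 27.1 and 62.1 CPM in LEC and 335, 378, 659.8, 713 and 774 CPM in BEC (log2 fold change -4.11 ± 0.16 SE, adjusted p = 1.19e-07). Sox17, a factor of arterial cells, stood at 18.3, 17.6, 12.3, 5.42 and 43.7 CPM in LEC and 343, 449, 372, 291 and 270.1 CPM in BEC (log2 fold change -4.50 ± 0.31 SE, adjusted p = 3.03e-06). Cd34, a sialomucin of blood capillaries, stood at 118, 60.1, 52.8, 69.1 and 82.8 CPM in LEC and 1135, 1242, 1049.7, 979 and 769 CPM in BEC (log2 fold change -3.88 ± 0.19 SE, adjusted p = 3.96e-07). Ly6a and Efnb2 differed least, at -0.47 and -0.56 on the log2 scale. Haemoglobin genes were also far lower in LEC, with at most 108 CPM summed over 4 genes against 1223 to 4561 CPM in BEC, but 1 to 3 BEC per age carried 5 or more such UMIs, and leaving those cells out gave 2610 called genes. Perivascular markers were lower in LEC too (4 of the 4 tested), with Rgs5 of pericytes at 30.4, 23.8, 28.1, 50.1 and 39.1 CPM in LEC and 99.5, 305, 349, 93.9 and 291 CPM in BEC.

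Among the genes meeting the rule for the largest differences (at least 50 CPM in the higher class and the same direction at 5 of 5 ages), the 10 with the largest rise in LEC included Klrb1f, Marco, Stab2, Slc45a3, Dtx1, Ackr4, Gpm6a, Creg2 and Fgl2, at 5.15 to 7.44 on the log2 scale. Klrb1f, a lectin-like receptor of the natural killer gene complex, stood at 208, 111, 154, 207 and 198 CPM in LEC and 0.565 to 1.39 CPM in BEC (log2 fold change 7.44 ± 0.21 SE, adjusted p = 2.58e-08), and related Klrb1 genes could share its reads. Stab2, a receptor that clears hyaluronan, stood at 70.0, 132, 167, 186 and 149 CPM in LEC and 0.866 to 2.23 CPM in BEC (log2 fold change 6.37 ± 0.20 SE, adjusted p = 4.52e-08). Fgl2, a fibrinogen-like protein, stood at 906, 583, 425, 452 and 423 CPM in LEC and 26.6, 19.97, 11.1, 11.9 and 6.93 CPM in BEC (log2 fold change 5.15 ± 0.15 SE, adjusted p = 2.58e-08). Gpm6a, a membrane glycoprotein best known from neurons, stood at 177, 155, 151, 219 and 315 CPM in LEC and 2.83 to 6.50 CPM in BEC. The 10 with the largest fall were Esm1, Rgcc, Aplnr, C1qtnf9, Car4, Thrsp, Aqp7, Magix, Lcp1 and Abcb1a. Rgcc stood at 10.7, 20.7, 17.1, 14.9 and 25.3 CPM in LEC and 619.9, 806, 923, 609 and 532 CPM in BEC (log2 fold change -5.48 ± 0.18 SE, adjusted p = 5.2e-08), and Aplnr, the apelin receptor, at 10.7, 4.15, 2.06, 4.06 and 16.1 CPM in LEC and 295, 305, 249, 240.1 and 96.1 CPM in BEC (log2 fold change -5.41 ± 0.36 SE, adjusted p = 2.25e-06). All 20 kept their direction and their side of the threshold under the 17 alternatives run.

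Promoter sequence was set beside these genes, since 1195 genes moved together between the classes. RefSeq promoters (GRCm38.p6, 250 bases upstream of a start) of 27025 genes were searched on both strands for the forkhead core TGTTTA, the nuclear receptor half-site AGGTCA and the MAF half-site TGCTGA. A single stretch can hold both of the last motifs in part, since each has the letters TGA on one strand. The forkhead core was in 12% of all promoters, in 7.25% of the 7384 promoters of tested genes and in 6.90% of the 884 of genes higher in LEC. The nuclear receptor half-site was in 13.8%, 9.99% and 10.2%, and the MAF half-site in 15.8%, 11.5% and 12%. The shares for genes higher in LEC were thus close to those of all tested genes. The upstream sequences of Marco and of the second annotated start of Slc45a3, a sugar transporter, are shown because both genes were among the 10 most raised in LEC and their windows meet no annotated exon. Capitals mark the nuclear receptor half-site, read on the printed strand, which lies 115 bases before the Slc45a3 start. Marco had none of the 3 motifs in this window. The windows of Klrb1f, of both Gpm6a starts and of the first Slc45a3 start also meet no annotated exon, and they held none of the 3 motifs.
Marco, chr1:120505025-120505274, minus strand: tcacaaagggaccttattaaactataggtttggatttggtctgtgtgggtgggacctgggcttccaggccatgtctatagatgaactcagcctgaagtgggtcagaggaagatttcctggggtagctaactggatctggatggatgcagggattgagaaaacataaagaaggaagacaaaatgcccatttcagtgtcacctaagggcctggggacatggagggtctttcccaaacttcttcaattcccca
Slc45a3, chr1:131970359-131970608, plus strand: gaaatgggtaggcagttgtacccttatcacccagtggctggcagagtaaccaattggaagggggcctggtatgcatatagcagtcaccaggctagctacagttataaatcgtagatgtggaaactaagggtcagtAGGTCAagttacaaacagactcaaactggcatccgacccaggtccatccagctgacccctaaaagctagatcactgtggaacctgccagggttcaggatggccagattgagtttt

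The VEGF-C and angiopoietin system divided between the classes, with 3 of 10 tested genes higher in LEC (Flt4, Nrp2 and Angpt2) and 3 lower (Vegfc, Kdr and Nrp1), against 27.5% of all tested genes called in either direction. The ligand gene Vegfc stood at 5.33, 6.22, 8.23, 8.80 and 16.1 CPM in LEC and 64.4, 35.3, 29.1, 26.0 and 16.9 CPM in BEC (log2 fold change -2.15 ± 0.35 SE, adjusted p = 0.00103), so the ligand was lower where its receptor Flt4 was higher. The coreceptors of the family were opposed. Nrp1 stood at 42.6, 19.7, 30.8, 27.1 and 96.6 CPM in LEC and 380.3, 491, 626, 715 and 701 CPM in BEC (log2 fold change -3.98 ± 0.28 SE, adjusted p = 3.03e-06), and Nrp2, which binds VEGF-C, at 139, 133, 107, 129 and 82.8 CPM in LEC and 64.4, 46.4, 89.4, 74.6 and 100.4 CPM in BEC (log2 fold change 0.64 ± 0.21 SE, adjusted p = 0.045). Nrp2 was higher in LEC at 4 of the 5 ages and lower at D300. Tie1 and Tek, the receptor pair of the angiopoietins, did not pass the test, at -0.11 and -0.42 on the log2 scale.

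Among 10 tested junction genes, 3 were higher in LEC and 4 lower, against 12.5% and 15.0% of all tested genes. Cldn5, the main claudin of endothelial tight junctions, stood at 2113, 2348, 1739, 1924 and 1999 CPM in LEC and 1162, 522, 185, 303 and 224 CPM in BEC (log2 fold change 2.36 ± 0.30 SE, adjusted p = 0.000205). Its BEC level was highest at D0, whereas its LEC level varied little. Esam stood at 149, 123, 119, 102 and 156 CPM in LEC and 826, 931, 895, 787 and 821 CPM in BEC (log2 fold change -2.81 ± 0.12 SE, adjusted p = 1.99e-07), and Jam2, an adhesion protein of high endothelial venules, at 8.37, 5.18, 4.11, 11.5 and 4.60 CPM in LEC and 102, 65.5, 137, 175 and 171 CPM in BEC (log2 fold change -4.22 ± 0.21 SE, adjusted p = 3.78e-07). Cldn11, listed with the valve genes, was another claudin high in LEC, at 362, 459, 356, 282 and 271 CPM against 18.1, 7.43, 9.41, 18.9 and 17.3 CPM (log2 fold change 4.52 ± 0.26 SE, adjusted p = 9.18e-07). Notch genes were mostly lower, with 5 of 7 tested lower and 1 (Hes1) higher, against 15.0% and 12.5% of all tested genes. Notch4 stood at 3.04, 4.15, 8.91, 2.71 and 9.20 CPM in LEC and 50.3, 46.0, 68.4, 62.7 and 52.4 CPM in BEC (log2 fold change -3.54 ± 0.24 SE, adjusted p = 2.8e-06). Basement membrane genes followed, with 7 of 11 lower and 2 higher, against the same 15.0% and 12.5%. The 2 were Lama4 (0.93) and Fn1 (0.95). Of the 8 fibroblast markers, 5 were lower in LEC and 0 higher, against the same shares. Fibroblast reference cells held the basement membrane genes at 1796 to 11308 CPM together. The part of other cells in the LEC and BEC levels was not tested. Col4a1 stood at 332, 320.3, 391, 171 and 85.1 CPM in LEC and 938, 1361, 1277, 675 and 443 CPM in BEC (log2 fold change -1.97 ± 0.12 SE, adjusted p = 1.37e-06), so both classes had their lowest levels at D56 and D300.

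Scavenger and lectin receptors were higher in LEC for 6 of 9 tested genes and lower for 1, Scarb1, against 12.5% and 15.0% of all tested genes. Marco stood at 247, 564, 174, 436 and 255 CPM in LEC and 0.565 to 7.42 CPM in BEC (log2 fold change 6.39 ± 0.24 SE, adjusted p = 9.61e-08). Clec4g, a C-type lectin of sinusoidal cells, stood at 71.5, 92.2, 124, 232 and 85.1 CPM in LEC and 0.565 to 16.3 CPM in BEC (log2 fold change 4.52 ± 0.30 SE, adjusted p = 2.3e-06). Mrc1, the mannose receptor, stood at 14.5, 24.9, 23.3, 10.8 and 13.8 CPM in LEC and at 0 in all BEC sums, which is at least 65.5-fold higher in LEC when 3 counts over all BEC are taken as the floor. Marco, Clec4g and Mrc1 are also macrophage genes, while the 8 macrophage markers given above summed to at most 10.2 CPM in LEC.

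Of 12 tested cytokine and adhesion genes of the node, 7 were higher in LEC and 4 lower, against 12.5% and 15.0% of all tested genes. Il7, the survival factor of naive T cells, stood at 51.0, 40.4, 48.0, 69.1 and 75.9 CPM in LEC and 1.13, 3.25, 6.41, 15.6 and 11.7 CPM in BEC (log2 fold change 2.85 ± 0.29 SE, adjusted p = 4.24e-05). Il33, an alarmin, stood at 90.5, 168, 253, 329 and 149 CPM in LEC and 25.4, 22.3, 29.5, 69.0 and 33.8 CPM in BEC (log2 fold change 2.39 ± 0.17 SE, adjusted p = 4.01e-06). Csf1, the macrophage growth factor, stood at 75.3, 106, 191, 292 and 154 CPM in LEC and 26.0, 39.0, 62.0, 68.6 and 47.6 CPM in BEC (log2 fold change 1.63 ± 0.12 SE, adjusted p = 4.26e-06). All 5 LEC values of Il7 and of Csf1 lay above the highest BEC value. Tnfrsf11a, the receptor RANK, stood at 63.2, 67.4, 69.2, 77.9 and 85.1 CPM in LEC and 9.04, 5.57, 13.3, 15.96 and 16.4 CPM in BEC (log2 fold change 2.53 ± 0.18 SE, adjusted p = 3.9e-06), whereas its ligand gene Tnfsf11 was at 0 to 6.90 CPM in LEC and was too low to be tested. The adhesion molecules were split, with Vcam1 higher in LEC (1.33) and Icam1 (-1.04) and Madcam1 (-1.19) lower.

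Chemokines and their scavenging receptors comprised 4 genes higher and 4 lower of 11 tested, against 12.5% and 15.0% of all tested genes. Ackr4 stood at 86.0, 133, 189, 392 and 294 CPM in LEC and 2.16 to 11.1 CPM in BEC (log2 fold change 5.40 ± 0.24 SE, adjusted p = 2.28e-07), while Ackr1, the scavenging receptor of venules, was the reverse, at 18.3, 12.4, 28.1, 33.2 and 39.1 CPM in LEC and 124, 143, 273, 336 and 237 CPM in BEC (log2 fold change -3.20 ± 0.15 SE, adjusted p = 3e-07). Cxcl12 was lower in LEC (-1.99). Of the sphingosine phosphate genes, through which lymphocytes find the exit of the node, Sphk1 was higher (1.15), Sphk2 (-0.75) and Plpp3 (-2.68) were lower, and the transporter Spns2 did not pass (47.2, 50.8, 76.1, 70.4 and 69.0 CPM in LEC, 35.6, 39.5, 73.1, 58.3 and 49.8 CPM in BEC, log2 fold change 0.22 ± 0.11 SE, adjusted p = 0.197). Of 13 antigen presentation genes, 0 were higher and 1, Tapbp, was lower (median -0.13), against 12.5% and 15.0% of all tested genes. Of 13 interferon response genes, 2 were higher (Bst2 and Usp18) and 6 lower, against 12.5% and 15.0% of all tested genes. Rsad2 stood at 0.761, 1.04, 3.43, 20.3 and 9.20 CPM in LEC and 7.91, 17.2, 53.4, 80.9 and 103 CPM in BEC (log2 fold change -2.91 ± 0.29 SE, adjusted p = 3.28e-05).

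**Figure D2:**
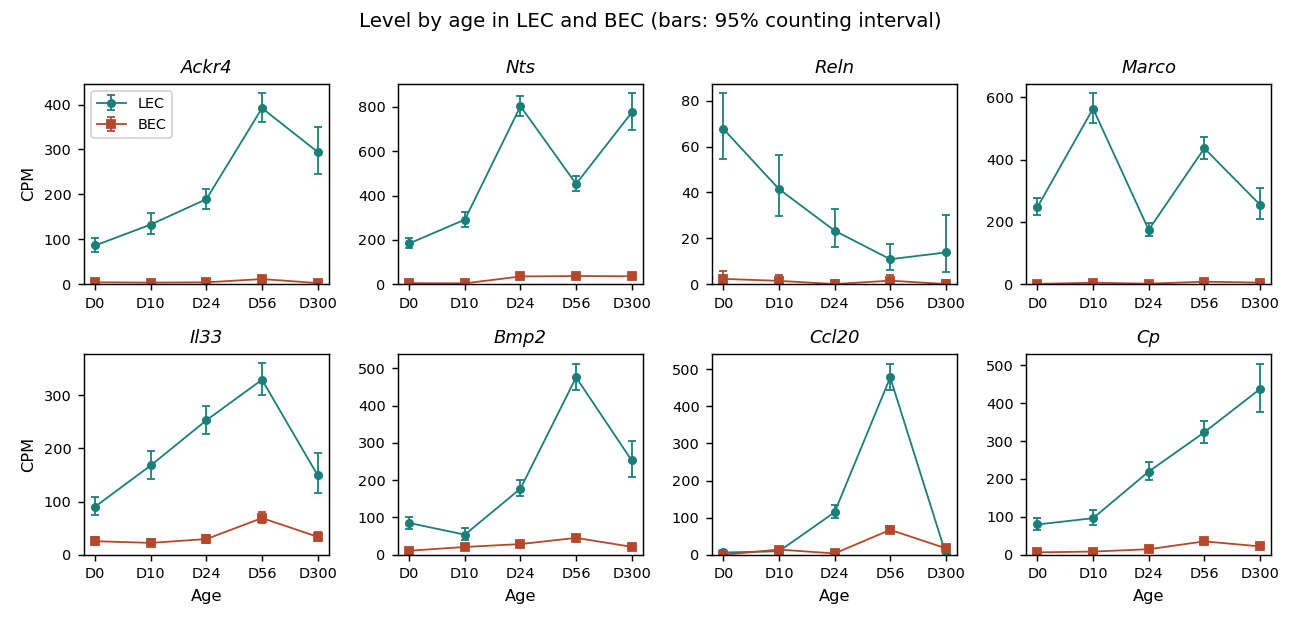
CPM by age of 8 genes in LEC (circles) and BEC (squares), with bars for the exact Poisson 95% interval, which covers counting error only. Ackr4 and Cp had their lowest LEC levels at D0 and Reln its highest, while Il33, Bmp2 and Ccl20 were highest at D56.

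Within the LEC, Marco and Ackr4 were mostly detected in different cells. Both sets are described here without a test, since they were chosen by the counts themselves. Of 791 LEC, 116 held a Marco UMI and no Ackr4 UMI, 291 held Ackr4 and no Marco, 17 held both and 367 held neither. Independent detection would put 51.8 cells in the overlap (the product of both shares). Marco was found with Clec4g in 89 cells (34.7 by the product of shares) and with the platelet integrin Itga2b in 79 (37.2), but with Stab2 in 58 (55.1), where D0 and D10 lay above the product (11 against 6.47 and 20 against 15.7) and D56 below it (10 against 16.5). Ackr4 was found with Clec4g in 27 (78.3). Nts was found with Marco in 8 cells (34.5) and with Ackr4 in 95 (78.2), and Foxc2 with Ackr4 in 154 (117). The median depth was 7062 UMIs in Marco+ Ackr4- and 5938 UMIs in Ackr4+ Marco- cells.

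Secreted factors were found in both sets. The Marco+ Ackr4- cells of D300 were only 8, with 40504 UMIs together, so that 1 UMI there is 24.7 CPM and each direction at D300 is the least precise. Over the 5 ages, Bmp2 averaged 636 against 20.3 CPM in Marco+ Ackr4- against Ackr4+ Marco- cells, Il33 488 against 117 CPM, Csf1 433 against 82.4 CPM and Ccl20 271 against 1.23 CPM, each higher at 5 of 5 ages, as were the genes named next. Coch, an extracellular matrix protein known from the inner ear, averaged 378 against 0.290 CPM, and the adhesion molecule Madcam1 621 against 143 CPM, with 494 against 483 CPM at D300. Ccl20 at D300 was 1 UMI. Of genes of antigen presentation, H2-K1 was at 5892 against 2967 CPM, Psmb8 at 616 against 237 CPM and Cd74, the class II invariant chain, at 771 against 171 CPM. Bmp4 and Il7 had the other direction, at 1.76 against 85.1 CPM and 17.5 against 85.1 CPM, each lower at 5 of 5 ages. Of the gate genes, whose levels the gate itself shapes, Lyve1 averaged 616 against 149 CPM, Mmrn1 78.8 against 764 CPM and Prox1 231 against 296 CPM.

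Other genes were higher in the Ackr4+ Marco- cells. In the same order of sets, Nts averaged 54.5 against 735 CPM, Fgl2 40.2 against 869 CPM, the atypical chemokine receptor Ackr3 7.44 against 293 CPM and the connexin Gja1 30.3 against 544 CPM. The fatty acid carriers Fabp4 and Cd36 averaged 379.9 against 4036 and 171 against 954 CPM, Cd36 being higher at 4 of the 5 ages and the others named here at 5. Foxc2 averaged 26.9 against 129 CPM. Of the subcapsular ceiling list, apart from Ackr4 itself, Ackr3, Fabp4, Btnl9 and Foxc2 were higher in the Ackr4+ Marco- cells at 5 of 5 ages and Cd36 at 4 of 5. Of the subcapsular floor list, Madcam1, Ccl20, Csf1, Coch and Itga2b were higher in the Marco+ Ackr4- cells at 5 of 5 ages, Bmp4 was lower at 5 of 5, and Glycam1 was higher in the Marco+ Ackr4- cells at 4 of 5 but not at D300 (2370.1 against 10157 CPM). Marco is on the medullary list. Of the other genes on it, Clec4g, Mrc1 and C2 were higher in the Marco+ Ackr4- cells at 5 of 5 ages, whereas Stab2 averaged 128 against 181 CPM and was higher in the Ackr4+ Marco- cells at 4 of 5. No Fcgr2b UMI was counted in either set.

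The Ackr4+ Marco- share of LEC was 16.7% at D0 (24 of 144, exact binomial interval 10.98% to 23.8%), 27.6% (interval 19.7% to 36.7%) at D10, and 37.4% (interval 30.6% to 44.6%) at D24. In the adult samples it was 47.1% (interval 40.7% to 53.6%) at D56 and 51.1% at D300 (48 of 94, interval 40.5% to 61.5%). The D0 interval did not meet those of D24, D56 and D300. After thinning to 2000 UMIs, an Ackr4 UMI was found in 11.1, 19.0, 21.0, 34.0 and 38.7% of LEC, and in 0.873, 0.727, 0.570, 1.93 and 0% of BEC and 1.09, 0.365, 1.07, 1.02 and 1.37% of fibroblast reference cells. The Marco+ Ackr4- share showed no such order, at 13.2%, 20.7%, 14.9%, 14.9% and 8.51%.

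**Figure D3:**
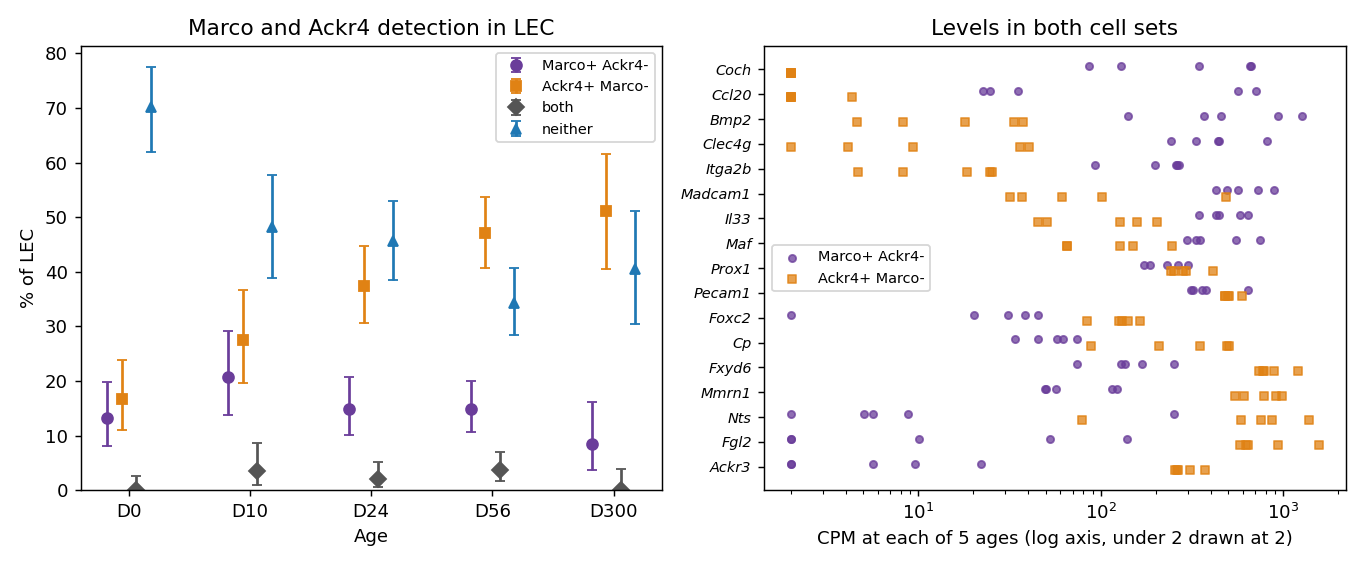
Left, the percent of LEC with detected Marco, Ackr4, both or neither by age, with exact binomial 95% intervals. Right, CPM (log axis) of 17 genes in Marco+ Ackr4- cells (circles) and Ackr4+ Marco- cells (squares), 1 symbol per age. The Ackr4+ Marco- share was 16.7% at D0 and 51.1% at D300, and Bmp2 and Clec4g symbols lie to the right for Marco+ cells while those of Fgl2 and most of Nts lie to the right for Ackr4+ cells.

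To follow LEC over postnatal life, the sums of D0, D10 and D24 (early) were compared with those of D56 and D300 (adult), and a positive log2 fold change means a higher level early. Of 9388 genes tested, 92 (0.98%) passed, of which 34 were higher early (0.362%) and 58 lower (0.618%), and 1806 had an unadjusted p under 0.05. With library sizes unscaled the median of all genes moved by 0.16 on the log2 scale and the split became 60 to 61. The count depended on single samples, with 7 genes left without D300, 17 without D0, 34 without D56, 46 without D10 and 473 without D24. Since the D56 data had been published before the other ages, age and the time of the experiment cannot be told apart.

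Genes of cell division led those higher early. Ube2c, which marks mitotic cyclins for destruction, stood at 62.4, 50.8, 39.1, 0 and 0 CPM (adjusted p = 0.00959 by edgeR), at least 32.3-fold higher early with 3 counts over both adult sums as the floor. Birc5 (survivin) stood at 101, 95.4, 35.6, 4.74 and 0 CPM (log2 fold change 4.25 ± 0.69 SE, adjusted p = 0.0347), and Ccnb2 (cyclin B2) at 59.3, 73.6, 22.6, 3.39 and 0 CPM (log2 fold change 4.12 ± 0.75 SE, adjusted p = 0.0481). All 3 early values lay above both adult values for each of these genes. Also among the 10 largest rises were the division and replication genes 2810417H13Rik, Cks2, Lmnb1 and Mcm6, at 2.70 to 4.33 on the log2 scale. Of the 6 genes of the cycling list, 5 were higher early, against 0.362% of all genes, with a median of 3.95 (3.86 with Ccnb1, which was at 0 in both adult sums, at its bound). Cldn4, a claudin of epithelia, stood at 57.1, 74.6, 28.8, 4.74 and 0 CPM (log2 fold change 3.71 ± 0.64 SE, adjusted p = 0.0404), was at 0 to 1.70 CPM in BEC, and was detected in 17.4%, 19.8% and 7.69% of LEC at the early ages. Cyth1, an exchange factor of ARF proteins, stood at 134, 171, 194, 12.9 and 18.4 CPM in LEC (log2 fold change 3.35 ± 0.32 SE, adjusted p = 0.00626) and at 278, 296, 393, 31.2 and 25.1 CPM in BEC, the same step between D24 and D56 in both classes. Eln, the elastin gene, stood at 1597, 997, 516, 215 and 96.6 CPM (log2 fold change 2.53 ± 0.48 SE, adjusted p = 0.0483), with 10875, 2232, 297, 95.4 and 32.5 CPM in BEC and 1983, 672, 612, 235 and 88.6 CPM in fibroblast reference cells, so the lowest values were at D300 in all 3 kinds of cells.

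The genes lower early included Prelp and Abi3bp of the matrix and immediate early genes, while the matrix gene Eln was higher early. Prelp, a leucine-rich matrix protein, stood at 37.3, 34.2, 47.3, 236 and 223 CPM in LEC (log2 fold change -2.69 ± 0.22 SE, adjusted p = 0.00392) and at 16.4, 8.82, 14.5, 34.9 and 13.9 CPM in BEC. It was lower at all 3 early ages than at either adult age and was called under all 14 alternatives, as was Rpl10-ps3. The other 18 named genes lost the call in 1 to 9 of the 14, among them Ccnb2 in 9, 2810417H13Rik, Fosb and Ctss in 8, Cldn4 in 7, Birc5 and Ubd in 6 and Eln in 5. Abi3bp, another matrix protein, stood at 13.7, 25.9, 33.6, 102 and 145 CPM (log2 fold change -2.47 ± 0.35 SE, adjusted p = 0.0244), and Cytl1, a small secreted protein, at 4.57, 4.15, 7.54, 42.7 and 138 CPM (log2 fold change -4.05 ± 0.58 SE, adjusted p = 0.0244). BEC had 219, 141, 12.4, 33.4 and 21.2 CPM of Cytl1, with the higher levels at D0 and D10. In fibroblast reference cells Prelp was at 81.0, 74.4, 111, 131 and 102 CPM and Cytl1 at 0 to 2.13 CPM. Btg2, an antiproliferative gene, stood at 202, 183, 278, 946 and 1424 CPM (log2 fold change -2.60 ± 0.28 SE, adjusted p = 0.00989), and Zfp36 and Fosb were also lower early, with Fosb at 112, 133, 268, 496 and 1382 CPM (log2 fold change -2.65 ± 0.49 SE, adjusted p = 0.0483). These are immediate early genes, known to respond to tissue dissociation. The summed level of the 8 dissociation and heat shock genes was 7853, 6893, 14066, 16391 and 23962 CPM in LEC and 9312, 11139, 16760.0, 16709 and 22193 CPM in BEC. Of the 8, 1 (Fos) was called lower early, against 0.618% of all tested genes. Ubd, an interferon-inducible ubiquitin-like gene, and Ctss, cathepsin S, were also among the 10, as were Rpl10-ps3, a ribosomal pseudogene whose reads the parent gene can share, and Arl2bp, at -3.17 and -2.70 on the log2 scale. Rpl10-ps3 stood at 29.7, 26.9, 30.2, 322 and 138 CPM in LEC and 32.8, 34.8, 34.6, 267 and 100.4 CPM in BEC, once more a step shared by both classes between D24 and D56. Arl2bp had such a step too, at 14.5, 7.255, 5.48, 52.1 and 55.2 CPM in LEC and 13.6, 13.5, 13.3, 89.1 and 87.0 CPM in BEC.

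**Figure D4:**
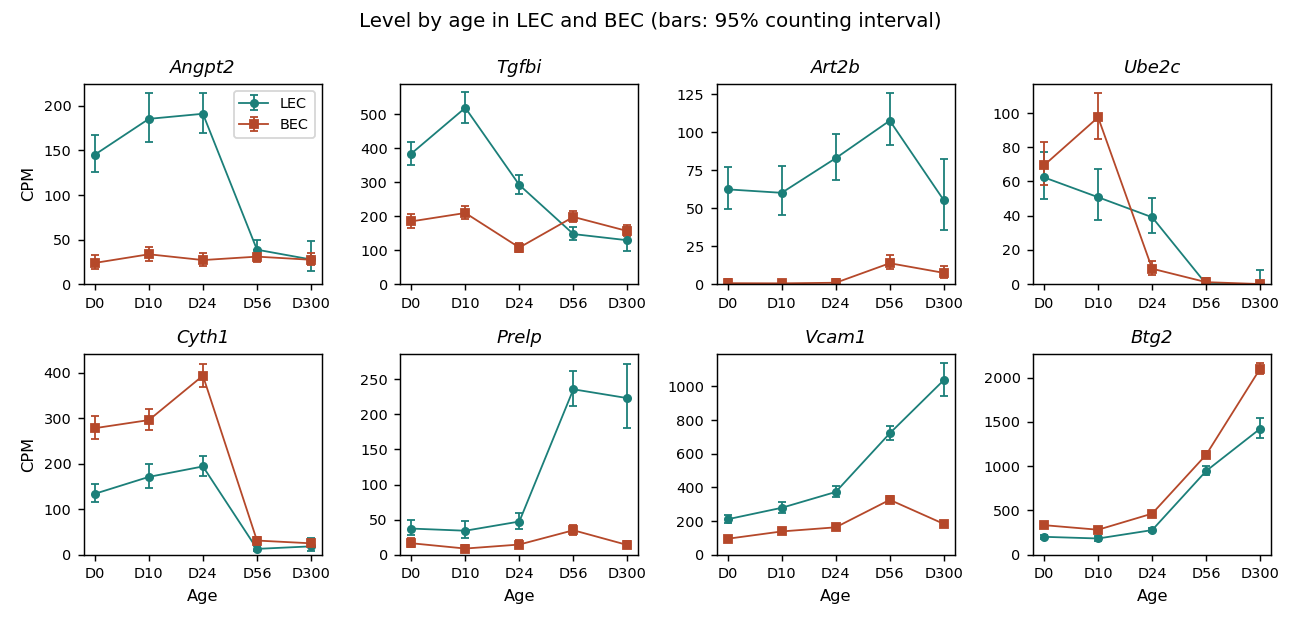
CPM by age of 8 genes in LEC (circles) and BEC (squares) with exact Poisson 95% intervals. Angpt2 and Tgfbi were higher in LEC at the 3 early ages than at D56 and D300, Cyth1 stepped down and Btg2 up after D24 in both classes, and Prelp and Vcam1 were highest in adult LEC.

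Few genes of the functional lists passed, where 0.98% of all tested genes did. A list with none called is therefore not set apart from all genes by that count. Of the 8 fibroblast markers 1 was higher early, against 0.362% of all tested genes, namely Col1a1 at 418, 178, 209.8, 54.2 and 32.2 CPM in LEC (log2 fold change 2.41 ± 0.42 SE, adjusted p = 0.0413) and 1127, 297, 245, 133 and 12.6 CPM in BEC, and the part of other cells in it was not tested. Vcam1, which binds integrins of lymphocytes, stood at 211, 279, 373, 721 and 1037 CPM in LEC (log2 fold change -1.80 ± 0.29 SE, adjusted p = 0.0334) and at 94.9, 138, 163, 326 and 183 CPM in BEC, with 365, 769, 639, 846 and 1457 CPM in fibroblast reference cells. Its LEC level was higher at each later age. Gbp2, an interferon-induced GTPase, stood at 20.5, 19.7, 25.4, 53.5 and 62.1 CPM (log2 fold change -1.53 ± 0.26 SE, adjusted p = 0.0391). The other 12 interferon response genes did not pass, although the median of the list was -1.53 on the log2 scale against a median near 0 for all genes. None of 13 antigen presentation genes passed (median -0.91). H2-D1, a class I gene that shares reads with related copies, stood at 3966, 6323, 8871, 12039 and 13470.0 CPM in LEC (log2 fold change -1.18 ± 0.31 SE, adjusted p = 0.0981) and at 3594, 8164, 8298, 9511 and 10179.6 CPM in BEC. None of the 18 lymphatic identity genes passed either (median -0.43). Reln, the secreted glycoprotein reelin, stood at 67.7, 41.5, 23.3, 10.8 and 13.8 CPM (log2 fold change 1.75 ± 0.51 SE, adjusted p = 0.121), and Cp, ceruloplasmin, at 79.9, 96.4, 219, 323 and 437 CPM (log2 fold change -1.69 ± 0.41 SE, adjusted p = 0.0842). Ackr4 narrowly missed the threshold (log2 fold change -1.51 ± 0.30 SE, adjusted p = 0.055). Basement membrane genes had a positive median (0.72) with 0 of 11 called, and Sparc stood at 1432, 1339, 1567, 863 and 439 CPM in LEC and 5753, 5365, 4655, 2673 and 1477 CPM in BEC.

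Whether the early to adult change differed between LEC and BEC was tested as an interaction over the 10 sums. Of 10778 genes, 3 passed (0.0278%), namely Angpt2, Tgfbi and Art2b, and 660 had an unadjusted p under 0.05. Angpt2 encodes angiopoietin 2, a ligand of TEK that acts in lymphatic remodelling, and lies on chromosome 8, 18690263 to 18741562 (GRCm38, minus strand). It stood at 145, 186, 191, 38.6 and 27.6 CPM in LEC and 23.7, 33.4, 26.9, 30.8 and 27.3 CPM in BEC. All 3 early LEC values lay above both adult ones, and the BEC values stayed between 23.7 and 33.4 CPM. The early against adult difference in LEC was 2.17 ± 0.25 (SE), adjusted p = 0.0116, and its excess over that in BEC was 2.39 ± 0.25 (SE), adjusted p = 0.027 in edgeR's quasi-likelihood test. With cells thinned to 2000 UMIs, 14.6, 22.4, 21.0, 7.88 and 2.15% of LEC, 3.06, 6.18, 5.13, 4.43 and 4.49% of BEC and 2.42, 2.78, 1.07, 1.72 and 0.686% of fibroblast reference cells had an Angpt2 UMI, so the LEC share was above that of BEC at D0 to D56, by least at D56, and below it at D300. The call was lost without D10, D56 or D300 and without cells holding a Ptprc or Col1a2 UMI, and the difference was then 2.35 to 2.58.

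Tgfbi, an adhesive matrix protein induced by TGF-beta, stood at 383, 518, 291, 147 and 129 CPM in LEC and 184, 209, 107, 197 and 156 CPM in BEC, and the difference of the 2 changes was 1.61 ± 0.20 (SE), adjusted p = 0.0427 by edgeR. LEC were above BEC at the early ages and below at D56 and D300. Art2b, an ecto-ADP-ribosyltransferase with a related copy that can share its reads, stood at 62.4, 60.1, 82.9, 108 and 55.2 CPM in LEC and 0.565, 0.464, 0.855, 13.7 and 7.36 CPM in BEC (3.64 ± 0.44 (SE), adjusted p = 0.0427 by edgeR). In this gene it was the BEC level that differed between early and adult ages. Its call was lost in 9 of 16 alternatives and that of Tgfbi in 7. Coch, at 111, 17.6, 50.7, 216 and 50.6 CPM in LEC and 0, 0, 0, 42.7 and 21.2 CPM in BEC, missed the threshold (adjusted p = 0.0545 by edgeR).

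Cycling cells were counted at equal depth, as cells with at least 2 UMIs of Mki67, Top2a, Cdk1, Ccnb1, Ccnb2 and Birc5 after thinning to 2000 UMIs. In LEC they were 14 of 144 cells at D0 (9.72%) and 10 of 116 at D10 (8.62%), with exact binomial intervals of 5.42% to 15.8% and 4.21% to 15.3%. At D24 they were 7 of 195 cells (3.59%, interval 1.46% to 7.26%), and at D56 only 2 of 241 (0.830%, interval 0.101% to 2.97%). None of 93 LEC was cycling by this count at D300 (0 of 93, which allows a share of up to 3.23% as 3 counts of the total, and 3.89% by the exact interval). The D0 and D10 intervals lay above that of D56. In BEC the shares were 8.73%, 13.5%, 1.42%, 0.193% and 0% (0 of 468, up to 0.641% as 3 counts of the total and 0.785% by the exact interval). The intervals of LEC and BEC met at every age, and with 1 sample per age the difference in share between the classes was not tested at any age. In the LEC against BEC test over the 5 ages, 0 of the 6 genes were higher and 0 lower. Of all tested genes, 12.5% were higher and 15.0% lower. The cycling share of LEC at D0 was 22.2% without thinning.

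**Figure D5:**
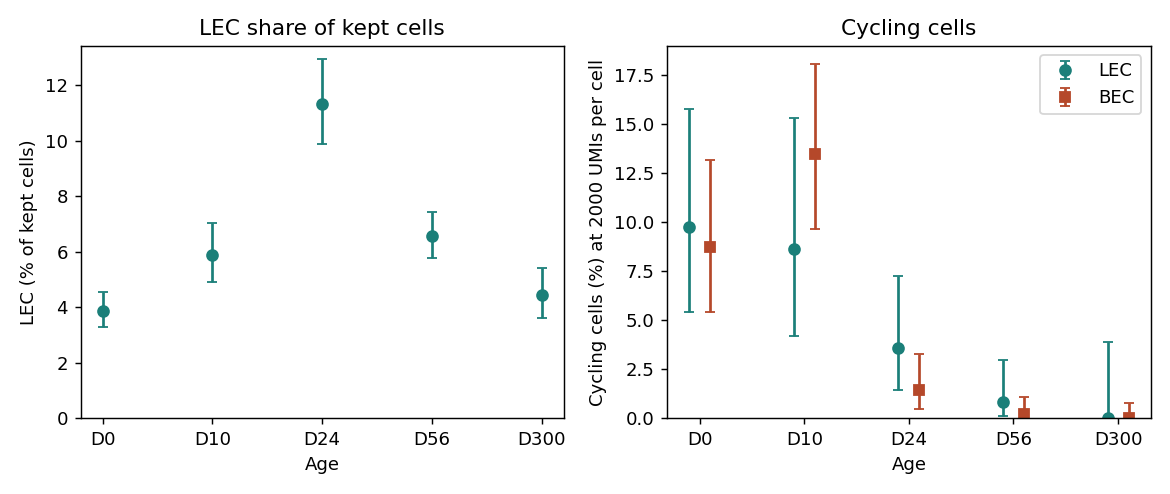
Left, LEC as a percent of kept cells by age. Right, the percent of LEC (circles) and BEC (squares) with at least 2 UMIs of 6 cycling genes at 2000 UMIs per cell, both with exact binomial 95% intervals. The LEC share was highest at D24 (11.3%), while cycling cells were 9.72% of LEC at D0 and none of 93 at D300.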

How the data were processed

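Single-cell 3' RNA sequencing of sorted CD45-CD24- mLN cells was analysed. Read processing by the authors used Cell Ranger 2.0.0, and the submitters' notes also name STAR, mm10 and Seurat 2.3.3. The deposited matrix holds UMI counts, not normalized, for 27998 genes in 17692 cells. Every value was a whole number, and all columns were used. Counts of the gated cells were summed per age and class (LEC, BEC), scaled to CPM for display, and tested with edgeR 4.0.16 (quasi-likelihood, TMM, filterByExpr, Benjamini-Hochberg 0.05) in R 4.3.3, with DESeq2 1.42.0 as an alternative. SE is the absolute log2 fold change over the square root of F. Shares carry exact Clopper-Pearson intervals and levels exact Poisson intervals at 95%. Thinning drew 2000 UMIs per cell, and 1 LEC each at D56 and D300 fell short. Where labels do not say that samples came from separate animals, p-values measure the spread between these samples only. No doublets were removed. At D0, 4616 cells were deposited, and 2562, 2202, 5438 and 2874 at the later ages.

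The members and the 28 gene lists were chosen with earlier results of these data known. Named genes are list members, and besides these the 10 largest changes each way among called genes with at least 50 CPM in the higher side (for LEC against BEC also the same direction at 5 of 5 ages), and for the interaction the called genes. Gate, sex-linked, mitochondrial and haemoglobin genes were left out of these. Gene positions are from GENCODE vM21 (GRCm38), which held 26646 of the 27998 symbols (95.2%). Ppap2b was not in the matrix, and 1 gene that met the rule is not reported here. The scripts were tested on simulated counts.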

Additional observations from a re-analysis of the deposited data

Results flagged for a closer look

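In 3 genes the early against adult change differed between LEC and BEC by the interaction test itself (edgeR's quasi-likelihood test with Benjamini-Hochberg adjustment over 10778 genes). The difference on the log2 scale was 3.64 for Art2b (adjusted p = 0.0427), 2.39 for Angpt2 (adjusted p = 0.027) and 1.61 for Tgfbi (adjusted p = 0.0427). Over the 16 alternatives the adjusted p of Angpt2 ranged from 1.07e-11 to 0.189, that of Tgfbi from 4.8e-09 to 0.296 and that of Art2b from 1.08e-07 to 0.761. The early LEC samples also carried pancreatic RNA at D0 and D24, and the part of it in the differences was not tested.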

How the results depend on the processing

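LEC against BEC gave 1593 called genes without the age block, of which 1584 were among the 2628. Early against adult in LEC gave 60 genes with no filter on cells, 948 with no filter on low counts, 247 by DESeq2 and 248 by a slope on log2(day + 1), of which 29 were among the 92. Leaving out 1 age gave 7 to 473 genes, and without D56 the 34 genes called were all lower early. The lone adult sample is then assumed to vary like the others. With unscaled library sizes 121 genes passed. Without cells holding Ptprc or Col1a2, 15 genes were higher and 56 lower. Of 280 fits of the 20 named genes, 204 kept the call, 76 lost it and 0 reversed. The difference between classes gave 5 genes with at least 2 lymphatic genes detected, 6 with no filter on cells, 5 without cells holding Ptprc or Col1a2 (0 of them among the 3), 1 with the reference at 1 Pecam1 UMI and 162 with no filter on low counts. Leaving out 1 age gave 0 to 10 by edgeR, with 0 without D10, D56 or D300, where 528, 797 and 461 genes had an unadjusted p under 0.05. DESeq2 called 3 over all ages, 2 of them (Angpt2 and Tgfbi) among the 3 by edgeR.

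The LEC share became 3.26%, 9.37%, 4.73% and 2.60% at D0, D24, D56 and D300 with at least 2 lymphatic genes detected, 5.68% and 3.36% at D56 and D300 with at least 3 lymphatic UMIs, and 7.26% at D10 with no filter on cells. With no demand on Pecam1, chosen after seeing the data like the setting without haemoglobin cells, it was 13.3% at D24 and 7.90% at D56. With the gate after thinning it was 1.64%, 2.29%, 4.63%, 3.18% and 2.20%. Without cells holding Ptprc or Col1a2, which removes most fibroblasts from the denominator, it was 26.5%, 26.0%, 27.6%, 23.6% and 8.41%. The cycling share was 22.2% at D0 without cells holding Ptprc or Col1a2, which is 4 of 18 cells with an interval of 6.41% to 47.6%. It was 20.1% and 16.4% at D0 and D10 with at least 1 UMI, and 22.2% and 17.2% without thinning. The causes were not tested, other than by the construction of each setting. No paired analysis was possible because the cell names carry no replicate number, beyond the block on age that joins LEC and BEC of the same sample. Counts at D300 rest on 94 LEC, so low genes were least precise there.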

Other observations

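Some LEC levels were set by 1 age or a few cells. Ccl20, the ligand of CCR6, stood at 6.09, 9.33, 114, 478 and 2.30 CPM in LEC, and a Ccl20 UMI was found in 26 of 242 LEC at D56, 12 of 195 at D24 and 1 of 94 at D300. Of the 47 LEC with Ccl20 over all ages, 20 also held Marco (8.33 by the product of shares) and 4 held Ackr4 (20.2). Bmp2, a bone morphogenetic protein, stood at 85.2, 53.9, 178, 476 and 253 CPM in LEC (log2 fold change -1.94 ± 0.44 SE, adjusted p = 0.0751 for early against adult, edgeR) and at 368, 141, 458, 1272 and 938 CPM in Marco+ Ackr4- cells. Coch was found together with Itga2b in 45 LEC (15.98 by the product of shares).

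Glycam1, a mucin of high endothelial venules, stood at 671, 202, 1126, 3286 and 5589 CPM in LEC, 942, 1283, 7118, 11312 and 17098 CPM in BEC and 10.2, 44.7, 233, 382 and 648 CPM in fibroblast reference cells. A Glycam1 UMI was found in 25.7, 45.7, 80.5, 86.0 and 89.4% of LEC and in 7.65, 28.0, 79.3, 84.6 and 96.1% of fibroblast reference cells.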
